A study of Mus musculus with 16 samples.

Results

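Ceramide is the hub of sphingolipid metabolism. Serine palmitoyltransferase joins serine to a fatty acyl-CoA, a ceramide synthase adds a second acyl chain, and a desaturase inserts the double bond that turns dihydroceramide into ceramide. Ceramide is then built into sphingomyelin or into glucosylceramide, the base of the gangliosides of neurons, while myelin is rich in galactosylceramide and its sulfated form. The 10 enzymes described here were chosen by gene name from a table of 55335 genes, with earlier results of these data known. They are mouse genes of these steps but not all of them, and Sptlc3, Cers3, Degs2 and Sgms2 are among those left out. Sptlc1 and Sptlc2 encode subunits of serine palmitoyltransferase. Cers1, Cers2, Cers4, Cers5 and Cers6 encode ceramide synthases, which differ in the length of the acyl chain they prefer, Cers1 being the neuronal form and Cers2 the form for very long chains. Degs1 encodes the dihydroceramide desaturase, Ugcg the glucosylceramide synthase and Sgms1 a sphingomyelin synthase of the Golgi. All 10 passed the filter on low counts, which kept 16475 genes.

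Hippocampi of 16 female mice were sequenced, 4 in each of 4 groups. WT mice were C57BL/6J x 129S1 and 3xTg mice were a model of Alzheimer's disease whose alleles include human mutant APP and tau transgenes, which are driven by the neuronal Thy1.2 promoter. WT-D and 3xTg-D mice received the vehicle, 0.8% DMSO in artificial cerebrospinal fluid, and WT-S and 3xTg-S mice 80 µM of an inhibitor of stearoyl-CoA desaturase (SCDi, labelled as a Cayman product) in the same vehicle, in each case by infusion into a lateral ventricle for 28 days. All mice therefore carried a cannula and an osmotic pump, and all were 10 months old at dissection. The labels disagree on the product, since the protocol common to all mice gives ab142089, and the treatment label was followed. The design asks whether the enzymes differ between genotypes under vehicle or inhibitor, whether the inhibitor changes them in either genotype, and whether its effect differs by genotype.

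Each library held 15413385 to 23590149 reads on genes, and each of the 10 enzymes had at least 262 reads in every mouse, so that none was limited by detection. Thy1 was at 1565.7 CPM or more in every 3xTg mouse and at 625.5 CPM or less in every WT mouse, as the labels of genotype state (CPM, counts scaled to a common library size by the TMM method). All listed markers of hippocampal neurons, oligodendrocytes, astrocytes, microglia and endothelium had reads in every mouse. The summed markers of choroid plexus, a ventricular tissue, stood at 668.3 CPM in mouse WT-D 4 and 261.1 CPM in mouse WT-S 1, against 34.5 CPM or less in the other 14 mice. The targets of the inhibitor, Scd1 and Scd2, were transcribed in all groups, with means of 147.7 to 184.4 CPM and 1342 to 1458 CPM.

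Levels of different genes were compared per exon length, as RPKM (CPM divided by the kilobases of merged exons). Degs1 was the highest of the 10 at 34.8 ± 2.56 RPKM (SD, n = 16), followed by Ugcg at 19.0 ± 1.31, and neither range met that of the next gene in the order. Below them stood Cers2 at 13.4 ± 1.14, Cers6 at 10.6 ± 0.981, Sptlc1 at 9.23 ± 0.617, Cers5 at 8.08 ± 0.707, Cers1 at 6.35 ± 0.565, Sptlc2 at 4.99 ± 0.304, Cers4 at 4.87 ± 0.950 and Sgms1 at 4.16 ± 0.383 RPKM. From Cers2 downwards the ranges of neighbours in the order overlapped. The desaturase Degs1 and the glucosylceramide synthase Ugcg thus had more transcript per length than any other member. By the length of the principal transcript the first 3 places were the same, whereas Cers5 moved from place 6 to 4 and Sgms1 from 10 to 7. Cers1 may stand too low in either order, because it shares exon bases with Gdf1 on the same strand.

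**Figure D1:**
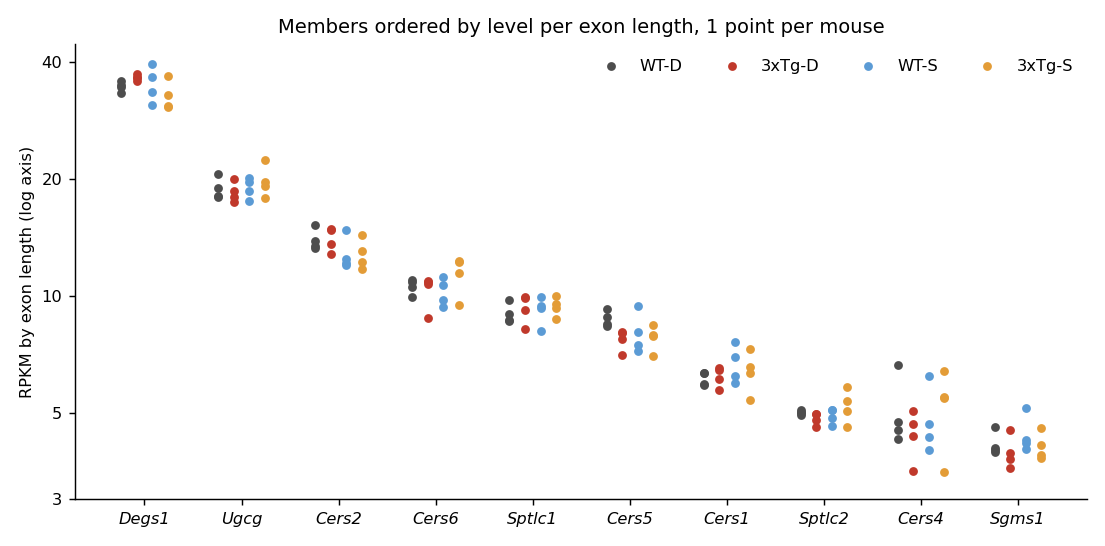
RPKM by merged exon length (log axis) of each enzyme in each of the 16 mice, coloured by group and ordered by mean. Degs1 (30.7 to 39.5 RPKM) and Ugcg (17.4 to 22.3 RPKM) stand clear of the other 8, and the groups overlap in the pairwise comparisons except for Cers5 in 3xTg-D against WT-D.

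The subunits of serine palmitoyltransferase were not transcribed at the same level. Sptlc1 exceeded Sptlc2 by a ratio of 1.86 ± 0.158 (RPKM, SD, n = 16), and the group means of that ratio lay between 1.80 in WT-D and 1.93 in 3xTg-D. Across the mice their log2 CPM gave a Pearson's r of 0.04 (n = 16). Between the members that consume ceramide, Ugcg exceeded Sgms1 by a ratio of 4.61 ± 0.411, or 2.29 by the length of the principal transcript. Other genes whose enzymes use ceramide, such as Sgms2 and Ugt8a, are not part of this ratio. Under vehicle this ratio was 4.56 ± 0.162 in the WT and 4.71 ± 0.694 in the 3xTg mice, and under the inhibitor 4.35 ± 0.376 and 4.81 ± 0.182 (SD, n = 4 per group).

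Of the summed RPKM of the 5 ceramide synthases, Cers2 held 31.0% ± 2.30, Cers6 24.5% ± 1.53, Cers5 18.6% ± 1.20, Cers1 14.7% ± 1.80 and Cers4 11.2% ± 1.78 (SD, n = 16). By this measure the synthase for very long chains had the largest share and the neuronal form, Cers1, the second lowest. The share of Cers1 may be too low, because part of its exon length is shared with another gene, as given below. Group means of the Cers2 share ran from 29.5% ± 3.22 in 3xTg-S to 32.8% ± 0.790 in 3xTg-D, and those of the Cers6 share from 23.8% ± 0.874 in WT-D to 26.0% ± 1.95 in 3xTg-S (SD, n = 4). The Cers5 share was 18.7% to 21.0% in the WT-D mice and 17.6% to 18.9% in the 3xTg-D mice. Cers3 had 1 to 9 reads per mouse, below the filter. Cers1 shares 1349 of its 3171 exon bases with Gdf1 on the same strand, and Gdf1 was listed with 0 reads in every mouse. The counts list ambiguous reads on a line apart from the genes. Reads in the shared stretch may therefore be missing from Cers1, which would make its RPKM and share too low. How many were lost is not given in the sources used here. Cers4 overlaps the pseudogene Vmn2r-ps89 by 886 bases on the other strand, and that pseudogene had at most 3 reads in any mouse.

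The genotype comparison under vehicle (3xTg-D vs WT-D) called none of the 10 enzymes. At the threshold of the study, an unadjusted p of 0.01 or less, edgeR's quasi-likelihood test called 0 of 10, where it called 4.91% of all 16475 genes, and at an adjusted p (Benjamini-Hochberg over all genes) of 0.05 or less it called 0 of 10 against 1.85%. DESeq2 also called 0 of 10. By edgeR 1 of 10, Cers5, had an unadjusted p under 0.05. Cers5 stood at 29.9, 29.6, 32.8 and 31.3 CPM in the WT-D mice and at 27.5, 24.9, 28.4 and 28.7 CPM in the 3xTg-D mice. Every 3xTg-D mouse thus lay below every WT-D mouse, which held for no other member and for 8.17% of all genes in one direction or the other. The log2 fold change of Cers5 was -0.17 ± 0.06 (SE, n = 4 per group), a fold of 0.887 with a 95% confidence interval of 0.806 to 0.975, and an adjusted p = 0.267 by edgeR. It was negative in all 16 alternative fits, at an adjusted p of 0.179 to 0.607, and was smallest, -0.11, with the share of uniquely mapped reads outside annotated genes as a covariate.

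Degs1 lay at 86.3, 90.6, 92.7 and 89.5 CPM in the WT-D mice and at 96.6, 94.1, 92.7 and 94.8 CPM in the 3xTg-D mice. These groups met only at 92.7 CPM, and the log2 fold change was 0.08 ± 0.04 (SE, 95% confidence interval -0.02 to 0.17, adjusted p = 0.519 by edgeR). The other 8 enzymes had log2 fold changes between -0.20 (Cers4) and 0.05 (Sptlc1). The interval of Cers4 was the widest, from -0.52 to 0.13, while that of Sptlc2 ran from -0.16 to 0.05. Over the 10 enzymes the median log2 fold change was -0.03, against 0.00 over all genes.

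**Figure D2:**
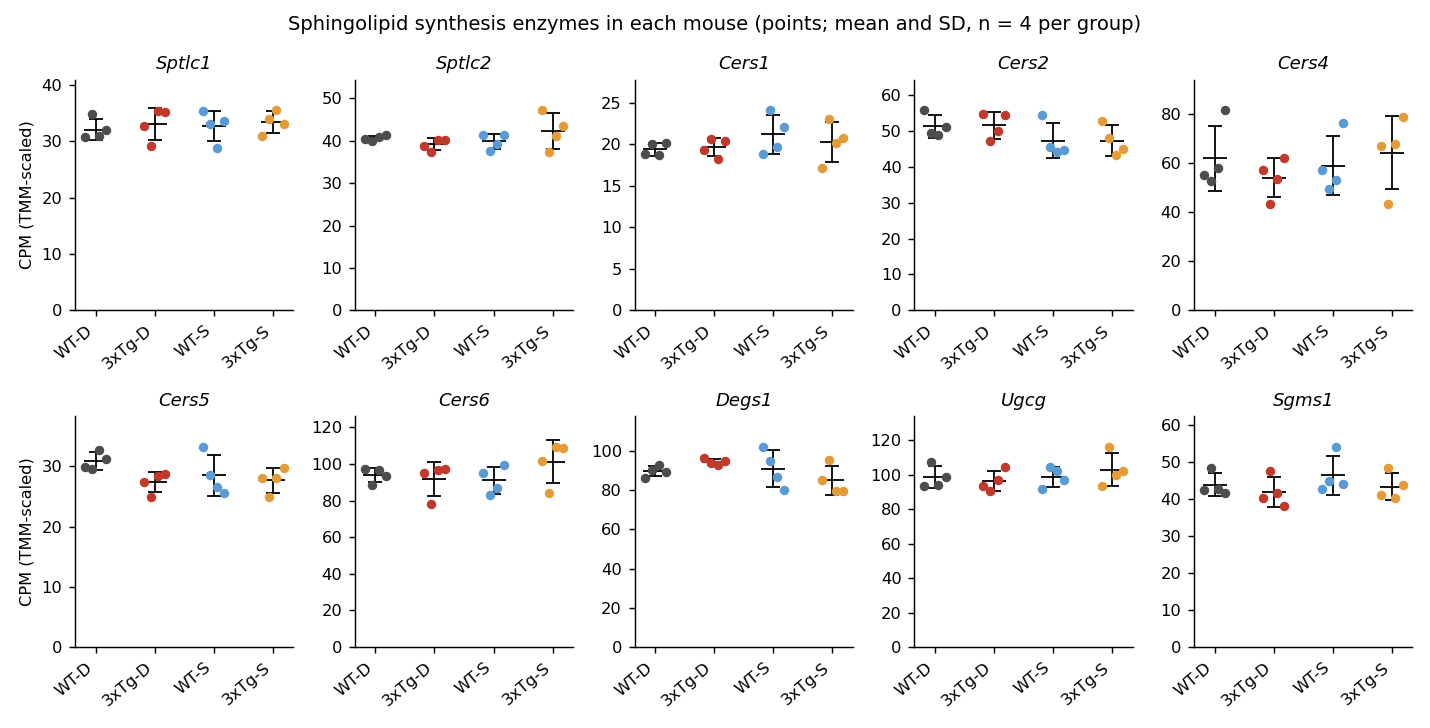
CPM of each enzyme in each mouse (points) with the group mean and SD (n = 4), on axes that start at 0. The 4 groups overlap in nearly every panel. In the Cers5 panel the 3xTg-D mice (24.9 to 28.7 CPM) lie below the WT-D mice (29.6 to 32.8 CPM), and Cers4 has the widest scatter within groups.

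Under the inhibitor (3xTg-S vs WT-S) the enzymes again gave 0 of 10 calls by edgeR, where 4.26% of all genes were called, and 0 of 10 at the adjusted threshold, where 1.40% were. DESeq2 called 0 of 10, and by edgeR none had an unadjusted p under 0.05. Every enzyme overlapped between the groups, which 6.75% of all genes did not. Log2 fold changes ran from -0.11 (Degs1) to 0.14 (Cers6), and 5 of 10 were positive. Cers5, lower in 3xTg mice under vehicle, was at 33.3, 28.6, 26.5 and 25.5 CPM in the WT-S mice and at 28.0, 24.9, 28.1 and 29.8 CPM in the 3xTg-S mice. In 3 of the 4 3xTg-S mice it lay within the range of the WT-S mice, and its log2 fold change was -0.06 (95% confidence interval -0.28 to 0.17). Whether the genotype effect on Cers5 differed between vehicle and inhibitor was tested by the interaction, 0.13 with an interval of -0.12 to 0.38 (adjusted p = 0.789 by edgeR).

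In WT mice the inhibitor (WT-S vs WT-D) changed none of the 10 enzymes past the threshold. edgeR called 0 of 10 members against 0.188% of all genes and 0 of 10 against 0% at the adjusted threshold. DESeq2 called 0 of 10, and by edgeR none had an unadjusted p under 0.05. No member separated the groups, as 1.48% of all genes did. The highest log2 fold change was that of Cers1, 0.13 (95% confidence interval -0.06 to 0.32), and the lowest that of Cers2, -0.12 (-0.30 to 0.07). Cers2 lay at 55.9, 49.5, 48.7 and 51.1 CPM in the WT-D mice and at 54.5, 45.7, 44.1 and 44.8 CPM in the WT-S mice. In 3 of the 4 WT-S mice it was below every WT-D mouse, and mouse WT-S 1 was the exception. WT-S 1 carried choroid plexus transcripts (261.1 CPM), and so did WT-D 4 (668.3 CPM), where Cers2 was at 51.1 CPM. In WT-D 1, with 3.42 CPM of these markers, Cers2 was at its highest, 55.9 CPM. The WT-S and WT-D mice of the same number deviated together, and the members also gave 0 calls when the replicate number was a block.

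In 3xTg mice the inhibitor (3xTg-S vs 3xTg-D) also gave 0 of 10 calls by edgeR, where 0.904% of all genes were called, and 0 of 10 at the adjusted threshold, where 0% were. DESeq2 called 0 of 10, and by edgeR none had an unadjusted p under 0.05. The groups overlapped for all 10, and 3.16% of all genes did not overlap. Degs1 came nearest. It lay at 96.6, 94.1, 92.7 and 94.8 CPM in the 3xTg-D mice and at 85.4, 95.3, 79.8 and 79.6 CPM in the 3xTg-S mice, so that 3 of the 4 inhibitor-treated mice were below every vehicle-treated mouse and mouse 3xTg-S 2 lay within their range. The log2 fold change was -0.15 ± 0.07 (SE, n = 4 per group), a fold of 0.900 with a 95% confidence interval of 0.808 to 1.00 (adjusted p = 0.722 by edgeR).

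Cers4 moved the other way with far more scatter. It stood at 57.3, 43.4, 53.5 and 61.9 CPM in the 3xTg-D mice and at 67.0, 43.3, 67.5 and 78.5 CPM in the 3xTg-S mice, with a log2 fold change of 0.25 ± 0.17 (95% confidence interval -0.12 to 0.62, adjusted p = 0.732 by edgeR). Both values were larger without mouse 3xTg-S 2. Without it the log2 fold change of Degs1 was -0.21 and that of Cers4 0.40, so that both passed the unadjusted threshold, each with an adjusted p of 0.204 by edgeR, in a fit that called 4.87% of all genes in place of 0.904%. With all 4 mice and the replicate number as a block, Cers4 also passed it at 0.23 (adjusted p = 0.109 by edgeR), where 6.88% of all genes did. Over the 15 alternative fits the adjusted p of Degs1 ran from 0.204 to 1.00 and that of Cers4 from 0.109 to 1.00. Mouse 3xTg-S 2 had the smallest share of uniquely mapped reads outside annotated genes, 7.82%, and the highest summed oligodendrocyte markers of its group, 6763 CPM against 4329 to 4853 CPM. With that share as a covariate Degs1 was at -0.11 and Cers4 at 0.013, and with the oligodendrocyte marker score as a covariate Degs1 was at 0.015 and Cers4 at -0.22, so that neither value kept its size and the directions turned with the score.

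**Figure D3:**
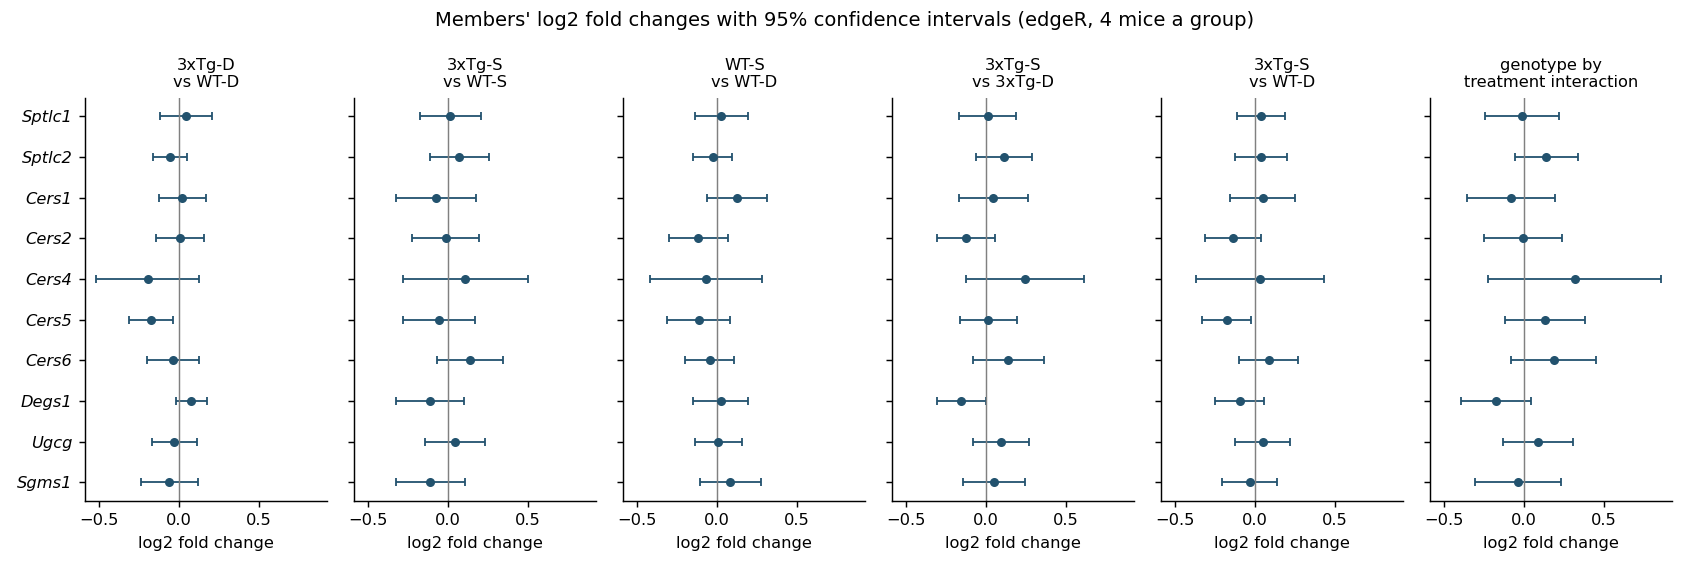
Log2 fold change of each enzyme with its 95% confidence interval in the 5 pairwise comparisons and the genotype by treatment interaction (edgeR, 4 mice per group). Only the intervals of Cers5 in 3xTg-D vs WT-D (-0.31 to -0.04) and in 3xTg-S vs WT-D (-0.33 to -0.02) leave out 0, and Cers4 has the widest interval in every panel.

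Inhibitor-treated 3xTg mice set against vehicle-treated WT mice (3xTg-S vs WT-D) gave 0 of 10 members called by edgeR against 5.69% of all genes, and 0 of 10 at the adjusted threshold against 1.58%. DESeq2 called 0 of 10. By edgeR 1 of 10, Cers5, had an unadjusted p under 0.05. No member separated these groups, whereas 9.55% of all genes did. Cers5 had a log2 fold change of -0.18 ± 0.07 (95% confidence interval -0.33 to -0.02, adjusted p = 0.293 by edgeR). This comparison shares its WT-D mice with the comparison under vehicle, and so its value is no second measurement. With the share of reads outside genes as a covariate Cers5 was at -0.20 and passed the unadjusted threshold (adjusted p = 0.0582 by edgeR), as 8.37% of all genes did in that fit, while over its 16 alternative fits the adjusted p ran up to 0.535. Without mouse 3xTg-S 2, Cers6 was at 0.17 (adjusted p = 0.105 by edgeR) and passed the unadjusted threshold, as 9.38% of all genes did, where it was at 0.09 (adjusted p = 0.728) with all 4 mice.

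The interaction asked whether the inhibitor acted differently in the genotypes. edgeR called 0 of 10 members, against 0.595% of all genes, and 0 of 10 at the adjusted threshold, against 0%. DESeq2 called 0 of 10, and by edgeR none had an unadjusted p under 0.05. Degs1 had the smallest p of the members, with an interaction of -0.17 (95% confidence interval -0.39 to 0.04, adjusted p = 0.788 by edgeR). Cers4 had the largest estimate, 0.32, with an interval from -0.22 to 0.86, and with the share of reads outside genes as a covariate it was -0.051.

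How the enzymes varied between single mice was clearer than how they varied between groups. Cers4 had a coefficient of variation of 19.5% over the 16 mice and a 1.89-fold range from the lowest mouse (43.3 CPM) to the highest (81.6 CPM), whereas the other 9 had coefficients of 6.09% to 9.22%. Its level followed the percentage of uniquely mapped reads lying outside annotated genes, from 7.82% to 15.1% per mouse. The relation had a Pearson's r of 0.920 and a Spearman's rho of 0.941 (n = 16), each with a permutation p of 2e-05, the smallest that 100000 two-sided resamples give, and 0.0002 after adjustment over the 10 members. Taken alone, the 8 WT mice gave r = 0.887 (exact permutation p = 0.00208) and the 8 3xTg mice r = 0.962 (exact permutation p = 0.000347). Leaving out 3xTg-S 4 and 3xTg-S 2, whose shares were the most distant from the median, gave r = 0.904.

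Cers6 followed the same share with r = 0.83 and rho = 0.818, and Sptlc2 with r = 0.790 and rho = 0.841, at adjusted permutation p of 0.0002 and 0.00213 for r (n = 16). Within genotypes Cers6 gave r = 0.799 in WT (exact permutation p = 0.0144) and 0.855 in 3xTg mice (exact permutation p = 0.00615, n = 8 each). Sptlc2 gave 0.838 (exact permutation p = 0.00506) and 0.794 (exact permutation p = 0.0251). Degs1 fell with it, at r = -0.669 and rho = -0.653 (adjusted permutation p = 0.0104 for r). For Degs1 r was -0.510 within WT mice (exact permutation p = 0.193), -0.773 within 3xTg mice (exact permutation p = 0.0266), and -0.552 without the same 2 mice. For the other 6 enzymes the adjusted permutation p was 0.174 or more for r and 0.139 or more for rho. Many genes followed the share, and of all 16475 genes 1.14% had an r at least as high as Cers4, 5.88% as Cers6 and 7.93% as Sptlc2, and 9.12% one at least as low as Degs1. Among these, Cers5 gave r = 0.844 within 3xTg mice (exact permutation p = 0.00923, not adjusted) and -0.016 within WT mice (exact permutation p = 0.981). The share is a property of the library and holds intronic and intergenic reads, the permutations treat mice of all groups as exchangeable, and what it reflects was not tested. Its range was widest among the 3xTg-S mice (7.82% to 15.1%), followed by the WT-S (8.55% to 13.1%), 3xTg-D (8.79% to 11.3%) and WT-D mice (10.5% to 12.5%).

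**Figure D4:**
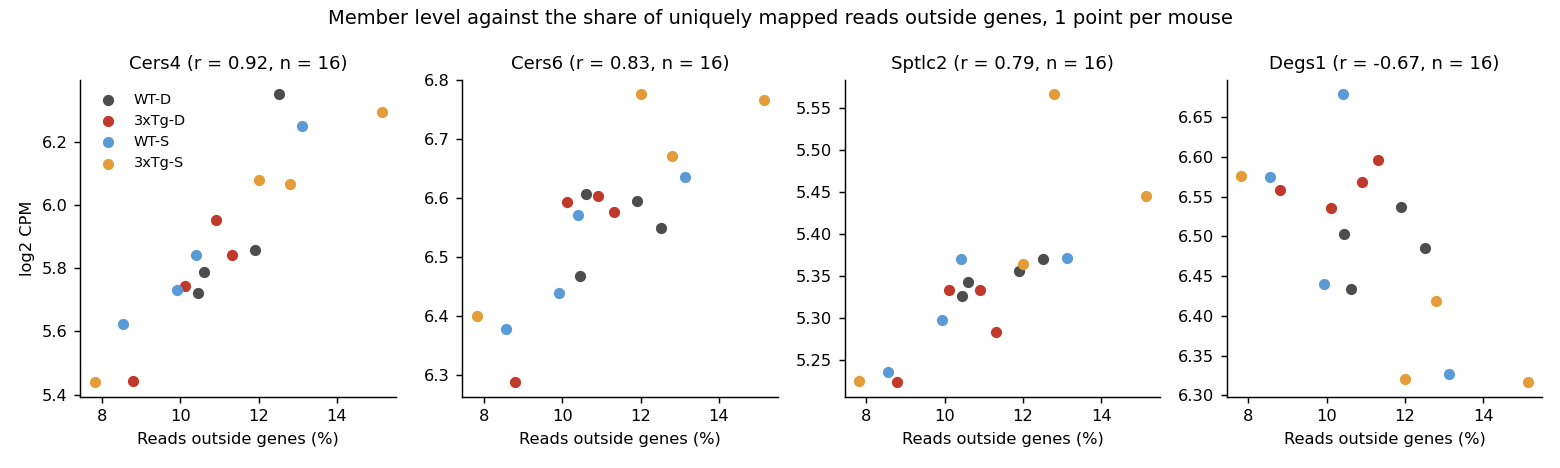
Log2 CPM of Cers4, Cers6, Sptlc2 and Degs1 against the percentage of uniquely mapped reads outside annotated genes, with 1 point per mouse coloured by group. The first 3 rise from the mice near 8% to those above 12% and Degs1 falls, and mice of all 4 groups lie along the same trend.

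The same 3 genes rose and fell together. Over the 45 pairs of members Pearson's r of log2 CPM ran from -0.64 to 0.78 (n = 16 mice), and the highest 3 were Cers4 with Cers6 (0.78), Sptlc2 with Cers6 (0.75) and Sptlc2 with Cers4 (0.72). With each mouse taken from its group mean these were 0.79, 0.70 and 0.70. Cers1, the neuronal synthase, moved with Ugcg (0.63) and against Sptlc2 (-0.61). Cers6 with Sgms1 was the lowest pair (-0.64), and Cers2 had its highest value with Degs1 (0.54). All pairs share libraries, and for Cers4, Cers6, Sptlc2 and Degs1 also the relation to reads outside genes.

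The stretches of 250 bases before the RefSeq start (GRCm38.p6) are shown for Sptlc2 and Cers6, the pair of enzymes that moved together and whose window holds no annotated exon. The window of Cers4 held 221 exon bases and is not shown. Each is given 5′ to 3′ on the strand of its gene, with CCAAT boxes, GC boxes (the letters GGGCGG) and E-boxes (the letters CACGTG) of either strand in capitals. The first window is chr12:87388356-87388605 (minus strand) and the second chr2:68861191-68861440 (plus strand).
Sptlc2: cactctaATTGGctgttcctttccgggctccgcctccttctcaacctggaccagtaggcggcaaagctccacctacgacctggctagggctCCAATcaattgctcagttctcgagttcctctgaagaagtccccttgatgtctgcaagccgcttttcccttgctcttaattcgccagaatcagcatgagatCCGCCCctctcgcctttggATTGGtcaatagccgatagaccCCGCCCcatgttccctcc
Cers6: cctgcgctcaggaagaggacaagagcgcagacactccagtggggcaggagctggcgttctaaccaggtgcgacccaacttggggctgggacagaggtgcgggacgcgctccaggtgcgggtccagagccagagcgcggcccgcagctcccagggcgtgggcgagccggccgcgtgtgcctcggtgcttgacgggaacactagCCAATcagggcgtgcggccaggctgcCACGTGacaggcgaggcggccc
Sptlc2 had 2 GC boxes and 3 CCAAT boxes, and Cers6 1 CCAAT box and 1 E-box, so that the CCAAT box was the motif they had in common. Of 32851 promoter windows 33.8% held a CCAAT box, 32.7% a GC box and 6.02% an E-box. A TATA box (TATAAA), held by 12.4% of windows, was in neither.

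By likeness over the 16 mice (Pearson's r of log2 CPM among 14246 protein-coding genes, n = 16), the genes closest to Cers4 were Acp6 (0.97), Dusp11 (0.97) and Atxn7l2 (0.96), and those closest to Cers6 included Tnks (0.96) and Prkdc (0.95). For Sptlc2 they were BC005561 (0.92), Rev1 (0.90) and Eif2ak4 (0.90), and for Cers1 Ccsap (0.91), Fam155a (0.88) and Ube3b (0.86). Degs1 was most like Tnfaip6 (0.89), Fez1 (0.88) and Rdx (0.86), and Ugcg most like Clec2l (0.85), Pnkd (0.85) and Mapk10 (0.81). Cers2 was most like Trim36 (0.85), Pex3 (0.85) and Gsn (0.79), and it was the member whose list reached furthest into the pathway. Fa2h, which hydroxylates the acyl chains of myelin lipids, was in place 5 (0.78) and Ugt8a, the galactosylceramide synthase, in place 7 (0.77). For the remaining members the highest values were 0.82 for Sptlc1 (Hspa4), 0.82 for Cers5 (Ndufaf7) and 0.84 for Sgms1 (BC024063).

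Beyond the members, 56 genes of sphingolipid synthesis, assembly, breakdown and sphingosine 1-phosphate (S1P) signalling were listed, of which 52 passed the filter. The remaining 4 were Sptlc3, Cers3, Acer1 and S1pr4, with at most 9 reads in any mouse. In 3xTg-D vs WT-D edgeR called 2 of 52, 1 in each direction, or 3.85% against 4.91% of all genes. Glb1, the lysosomal beta-galactosidase that degrades gangliosides, stood at 14.4, 12.4, 14.0 and 12.9 CPM in the WT-D mice and at 17.6, 14.9, 18.4 and 18.7 CPM in the 3xTg-D mice. Its log2 fold change was 0.37 ± 0.09 (adjusted p = 0.0838 by edgeR). St8sia5, a sialyltransferase of complex gangliosides, stood at 51.1, 51.4, 50.4 and 45.9 CPM in WT-D and at 42.3, 35.6, 39.1 and 45.0 CPM in 3xTg-D, with a log2 fold change of -0.30 ± 0.07 (adjusted p = 0.0915 by edgeR). For both genes the groups did not overlap, which held for 8.17% of all genes. Both were named for a low p in this comparison. By DESeq2 the adjusted p was 0.0395 for Glb1 and 0.0250 for St8sia5, in a fit that put 506 of 16475 genes at 0.05 or less. With an oligodendrocyte marker score (mean log2 CPM of the markers) as a covariate neither gene was called, at log2 fold changes of 0.32 and -0.29. That fit called 3.11% of all genes. The score was 8.17 to 8.44 in WT-D and 8.44 to 8.66 in 3xTg-D mice, so the fit can hardly tell score and genotype apart. In 3xTg-S vs WT-S edgeR and DESeq2 called 0 of 52, and 4 had an unadjusted p under 0.05 by edgeR. Among them was Glb1 at 0.28 (adjusted p = 0.298 by edgeR). Without mouse 3xTg-S 2 edgeR called 2 of 52, Glb1 (0.33) and the ganglioside activator Gm2a (-0.25), or 3.85% against 6.03% of all genes in that fit. Without 3xTg-S 3 or 3xTg-S 4 it called 1, the ceramidase Acer2 (0.65 and 0.63), where 3.16% and 3.13% of all genes were called.

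In WT-S vs WT-D edgeR and DESeq2 called 0 of 52, and none had an unadjusted p under 0.05 by edgeR. With the replicate number as a block 1 of 52 was called, Smpd4, a neutral sphingomyelinase, at -0.34 (adjusted p = 0.920 by edgeR), in a fit that called 0.698% of all genes. Without mouse WT-S 4, Smpd4 was also called, at -0.61, as were 3.13% of all genes. In 3xTg-S vs 3xTg-D edgeR called 3 of 52, all of them lower under the inhibitor, or 5.77% against 0.904% of all genes, and none at the adjusted threshold. S1pr5, an S1P receptor of oligodendrocytes, stood at 13.8, 11.5, 12.1 and 13.2 CPM in the 3xTg-D mice and at 9.48, 10.3, 9.51 and 9.93 CPM in the 3xTg-S mice. Its log2 fold change was -0.36 ± 0.09 (adjusted p = 0.722 by edgeR). Fa2h stood at 30.0, 22.5, 21.4 and 30.1 CPM in 3xTg-D and at 21.4, 20.2, 17.5 and 19.6 CPM in 3xTg-S, with a log2 fold change of -0.40 ± 0.13 (adjusted p = 0.722 by edgeR). S1pr2, another S1P receptor, was low, with 35 to 57 reads in 3xTg-D and 19 to 33 in 3xTg-S, and had a log2 fold change of -0.68 ± 0.21 (adjusted p = 0.722 by edgeR). All 3 separated the groups, as 3.16% of all genes did, and all 3 were named for a low p in this comparison.

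**Figure D5:**
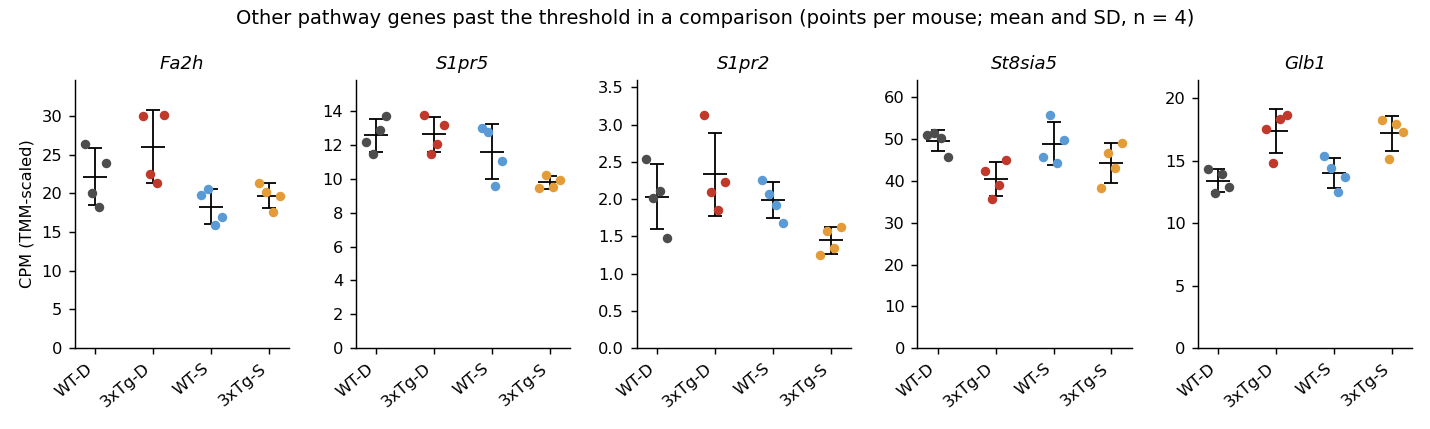
CPM of the 5 other pathway genes that passed the threshold in a comparison, in each mouse (points) with the group mean and SD (n = 4). Fa2h, S1pr5 and S1pr2 are lower in the 3xTg-S than in the 3xTg-D mice, St8sia5 is lower and Glb1 higher in the 3xTg-D than in the WT-D mice.

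S1pr5 and Fa2h are genes of myelinating cells, and the summed CPM of 7 oligodendrocyte markers was also lower in 3 of the 4 3xTg-S mice than in every 3xTg-D mouse. That sum was 5675 to 6743 CPM in the 3xTg-D mice and 4329 to 6763 CPM in the 3xTg-S mice, against 4377 to 5185 CPM in WT-D and 3448 to 5318 CPM in WT-S. Mouse 3xTg-S 2 had the highest sum of its group while its S1pr5 (10.3 CPM) and Fa2h (20.2 CPM) lay below every 3xTg-D mouse. Under vehicle the mean sum was higher in the 3xTg mice (6239.6 CPM) than in the WT mice (4840.4 CPM). Of the genes named here, Fa2h was higher along with the sum, its mean rising from 22.1 CPM (WT) to 26.0 CPM (3xTg). S1pr5 had a mean of 12.6 CPM in each genotype. Whether oligodendrocyte content caused the lower S1pr5 and Fa2h under the inhibitor was not tested. In these bulk samples fewer cells of a type and less RNA per cell cannot be told apart. With the oligodendrocyte score as a covariate edgeR called 0 of 52 in 3xTg-S vs 3xTg-D, where 0.364% of all genes were called in place of 0.904%. In that fit S1pr5 was at -0.27, Fa2h at -0.22 and S1pr2 at -0.44. S1pr5 was called in 13 of 15 alternative fits, Fa2h in 8 and S1pr2 in 5. These fits called 0.364% to 6.88% of all genes. They reuse the same mice, and the 3 genes were picked for passing the main fit, so the counts are no replication. Without mouse 3xTg-D 1 edgeR called 0 of 52, where 0.419% of all genes were called. Without 3xTg-S 1, 3xTg-S 3 or 3xTg-S 4 it called 1, S1pr5, where 0.413% to 0.971% of all genes were called. In 3xTg-S vs WT-D edgeR called 2 of 52 (3.85% against 5.69% of all genes). S1pr5 was at -0.38 ± 0.09 (adjusted p = 0.0724 by edgeR and 0.0439 by DESeq2) and was called in all 16 alternative fits. Glb1 was at 0.34 ± 0.09 (adjusted p = 0.104 by edgeR and 0.0589 by DESeq2) and was called in 10 of 16. These fits called 3.99% to 9.38% of all genes. DESeq2 put 577 of 16475 genes at an adjusted p of 0.05 or less. Without WT-D 2, WT-D 4, 3xTg-S 1 or 3xTg-S 3, S1pr5 was the 1 of 52 called, where 4.03% to 5.01% of all genes were. The interaction called 0 of 52 by edgeR and by DESeq2. By edgeR 2 had an unadjusted p under 0.05, S1pr1 at -0.38 and S1pr2 at -0.64 (adjusted p = 0.788 for each by edgeR). S1pr1 was called without mouse WT-D 2, 3xTg-D 4 or WT-S 4, at -0.46 to -0.45. It was also called with the replicate number as a block, at -0.37, and with no filter on low counts, at -0.41. These fits called 0.510% to 3.79% of all genes.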

How the data were processed

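Hippocampal RNA of 16 mice was sequenced as single-end reads with molecular identifiers. The authors trimmed reads with Trimmomatic 0.35, aligned them with STAR 2.5.1b to GRCm38 (Gencode M23) and deposited the raw counts. Whether counting used strand, and whether duplicates were removed, is not given in the sources used here. Whole numbers and unequal totals were checked in the table, whose 4 alignment summary lines were left out of the tests.

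edgeR 4.0.16 (R 4.3.3) filtered genes with filterByExpr (minimum count 10, minimum total 15), scaled libraries by TMM and compared groups pairwise by its quasi-likelihood test, two-sided. A gene was called where the unadjusted p was at most 0.01, the threshold of the study, with Benjamini-Hochberg adjusted p over 16475 genes beside it. The interaction was fitted to all 16 mice. Log2 CPM used a prior count of 2. Exon lengths came from Gencode M21 on the same build and promoters from RefSeq (all 10 members matched by symbol). The share of reads outside genes is that of uniquely mapped reads in STAR's no-feature line. The permutation tests used scipy 1.17.1.

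The 10 enzymes, the pathway list and the marker lists were chosen with earlier results of these data known. Besides the members, pathway genes called in any comparison were named, and for likeness the 3 closest protein-coding genes, apart from a few names that are not reported here. Alternatives were DESeq2 1.42.0 (likelihood ratio test), median-ratio size factors, no filter, all 16 mice in 1 fit, the replicate number as a block, 2 covariates, the adjusted threshold, each mouse left out, and, chosen after seeing the data, both choroid plexus mice left out. Where a comparison holds only 1 choroid plexus mouse, the fit without it is counted under 2 names among the alternative fits. The main fits, the block, the interaction and the fit with a covariate were tested on simulated counts. The replicate numbers come from the labels. Pairing was judged by the lowest correlation of deviations from the group means between same-numbered mice. WT-S and WT-D mice (0.114 to 0.340) were taken as paired, and in the other 4 comparisons the lowest was 0.062 or less. The mean was 0.217 in WT-S vs WT-D, 0.241 in 3xTg-S vs WT-S, 0.213 in 3xTg-S vs 3xTg-D, 0.176 in 3xTg-S vs WT-D and 0.041 in 3xTg-D vs WT-D. For mice of other numbers it was -0.084 to -0.010. The rule therefore does not show that mice of the other comparisons were independent.

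Nothing in the sources says that mice were handled in batches, and p-values measure the spread between the 4 mice of a group. Replicate libraries differed by more than counting noise (chi-square per degree of freedom, 3.78 to 45.2).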

Additional observations from a re-analysis of the deposited data

Results flagged for a closer look

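In 5 of 72 groups of 4 mice examined, 1 mouse stood apart from the other 3 by Dixon's criterion for 4 values, which chance alone would meet in about 5% of groups. Cers2 was at 54.5 CPM in mouse WT-S 1, where the next mouse of the group was at 45.7 CPM. Cers6 was at 78.0 CPM in mouse 3xTg-D 2, where the next was at 95.3 CPM. Sgms1 was at 48.4 CPM in mouse WT-D 2, where the next was at 42.7 CPM. The summed choroid plexus markers were at 668.3 CPM in mouse WT-D 4 (next 34.5 CPM) and at 261.1 CPM in mouse WT-S 1 (next 5.81 CPM). WT-S 1 is also the mouse with the high Cers2 value, while Cers2 in WT-D 4 was at 51.1 CPM. The highest Cers2, 55.9 CPM, was in WT-D 1, which had 3.42 CPM of these markers. The part of choroid plexus RNA in the Cers2 value of WT-S 1 was not tested. Without both choroid plexus mice edgeR called 0 of 10 enzymes in each comparison that held either of them.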

How the results depend on the processing

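The 108 alternatives over the 6 comparisons include the adjusted threshold on each main fit, which cannot call an enzyme that the looser threshold did not. They also count the fit without WT-D 4 or WT-S 1 again where a comparison holds only 1 of these choroid plexus mice. Of these 108, 104 called 0 of the 10 enzymes. The exceptions were the block in 3xTg-S vs 3xTg-D (1, Cers4 at 0.23, adjusted p = 0.109 by edgeR), the share of reads outside genes as a covariate in 3xTg-S vs WT-D (1, Cers5), and the fits without mouse 3xTg-S 2 in 3xTg-S vs 3xTg-D (2, Degs1 and Cers4) and in 3xTg-S vs WT-D (1, Cers6). In order, these fits called 6.88%, 8.37%, 4.87% and 9.38% of all genes, against 0.904% in 3xTg-S vs 3xTg-D and 5.69% in 3xTg-S vs WT-D with the settings of the report. Leaving out 1 mouse at a time thus gave 0 to 2 and 0 to 1 called enzymes in these comparisons. With 4 mice a group and intervals of the log2 fold change that reached 0.86 for Cers4, an absent call does not show that levels were alike. The cause of each change was not tested.

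The count of other pathway genes moved more. With the replicate number as a block it was 5 in place of 2 in 3xTg-D vs WT-D, 1 in place of 0 in 3xTg-S vs WT-S and in WT-S vs WT-D, 7 in place of 3 in 3xTg-S vs 3xTg-D and 2 in place of 0 in the interaction. Of all genes the block called 5.73%, 8.13%, 0.698%, 6.88% and 3.79% in these, in place of 4.91%, 4.26%, 0.188%, 0.904% and 0.595%. Only WT-S and WT-D mice were paired by the check of same-numbered mice. Their mean correlation was 0.217, and it was 0.241 in 3xTg-S vs WT-S and 0.213 in 3xTg-S vs 3xTg-D. Among genes named in the report, the block added S1pr1, Acer2 and Fa2h in 3xTg-D vs WT-D, Gm2a in 3xTg-S vs WT-S, Smpd4 in WT-S vs WT-D, S1pr1 and Gm2a in 3xTg-S vs 3xTg-D and in the interaction, and S1pr2 was lost (-0.66 in 3xTg-S vs 3xTg-D). At the adjusted threshold the main edgeR fits gave a count of 0 in 3xTg-D vs WT-D, 3xTg-S vs 3xTg-D and 3xTg-S vs WT-D. By DESeq2, Glb1 (0.0395) and St8sia5 (0.0250) in the first and S1pr5 (0.0439) in the last had an adjusted p under 0.05. With the oligodendrocyte marker score as a covariate the count at the unadjusted threshold was 0, 0 and 1 in these comparisons. Those fits called 3.11%, 0.364% and 4.87% of all genes. Without the choroid plexus mice the count was 1 in 3xTg-S vs WT-D, where 4.81% of all genes were called. With no filter, with all 16 mice in 1 fit and with the share of reads outside genes as a covariate it was 1 in 3xTg-S vs WT-S, and with no filter 1 in the interaction. Leaving out 1 mouse at a time gave 0 to 2 in 3xTg-S vs WT-S, WT-S vs WT-D and the interaction, 0 to 3 in 3xTg-S vs 3xTg-D and 1 to 3 in 3xTg-S vs WT-D.

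Some log2 fold changes changed sign, none of them past the threshold on either side. In the report those of Cers4 were -0.20 in 3xTg-D vs WT-D, 0.25 in 3xTg-S vs 3xTg-D and 0.32 in the interaction, and those of Cers6 and Degs1 0.14 and -0.15 in 3xTg-S vs 3xTg-D. With the oligodendrocyte marker score as a covariate they were Cers2 -0.10, Ugcg 0.070 and Sgms1 0.059 in 3xTg-D vs WT-D, Sptlc1 -0.022, Sptlc2 -0.0059, Cers4 -0.22, Cers5 -0.13, Cers6 -0.10 and Degs1 0.015 in 3xTg-S vs 3xTg-D, Cers4 -0.13 in 3xTg-S vs WT-D and Cers2 0.063 in the interaction. With the share of reads outside genes as a covariate they were Cers4 0.044 and Cers6 0.037 in 3xTg-D vs WT-D, Cers4 -0.082 in 3xTg-S vs WT-S, Cers4 0.066, Degs1 -0.015 and Ugcg -0.016 in WT-S vs WT-D, Cers5 -0.050 in 3xTg-S vs 3xTg-D, Cers4 -0.062 in 3xTg-S vs WT-D, and Cers4 -0.051 and Sgms1 0.051 in the interaction. Without the choroid plexus mice they were Cers2 -0.0056 in 3xTg-D vs WT-D, Cers2 0.060 and Cers5 0.024 in 3xTg-S vs WT-S, Sptlc1 -0.020, Cers4 0.10 and Degs1 -0.045 in WT-S vs WT-D, and Sptlc1 0.020 and Cers2 0.066 in the interaction. DESeq2 gave Cers2 -0.00014 in 3xTg-D vs WT-D, the fit of all 16 mice gave Cers2 0.00048 in 3xTg-S vs WT-S, and the fit without a filter gave Sptlc1 -0.012 and Cers5 -0.0088 in 3xTg-S vs 3xTg-D.

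Leaving out 1 mouse at a time crossed 0 for Cers1 (-0.0068 to 0.055), Cers2 (-0.026 to 0.047), Cers6 (-0.069 to 0.035) and Ugcg (-0.075 to 0.015) in 3xTg-D vs WT-D. In 3xTg-S vs WT-S it did so for Sptlc1 (-0.043 to 0.053), Cers2 (-0.069 to 0.060), Cers4 (-0.0056 to 0.25), Cers5 (-0.11 to 0.024) and Ugcg (-0.026 to 0.090). In WT-S vs WT-D these were Sptlc1 (-0.015 to 0.083), Cers4 (-0.21 to 0.087), Degs1 (-0.040 to 0.082), Ugcg (-0.020 to 0.052) and Sgms1 (-8.6e-06 to 0.14). In 3xTg-S vs 3xTg-D they were Sptlc1 (-0.057 to 0.046), Cers1 (-0.023 to 0.12), Cers5 (-0.040 to 0.066) and Sgms1 (-0.0090 to 0.11). In 3xTg-S vs WT-D they were Sptlc2 (-0.020 to 0.10), Cers1 (-0.017 to 0.12), Cers4 (-0.078 to 0.19), Ugcg (-0.013 to 0.092) and Sgms1 (-0.085 to 0.019), and in the interaction Sptlc1 (-0.085 to 0.025), Cers2 (-0.062 to 0.071) and Sgms1 (-0.11 to 0.049).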

Other observations

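The other pathway genes were grouped by role, and each group is given by its median log2 fold change and the number of positive members, where the median over all genes was 0.01 in 3xTg-S vs 3xTg-D, 0.00 in WT-S vs WT-D and 0.01 in the interaction. In 3xTg-S vs 3xTg-D the 11 tested genes of S1P metabolism and signalling had a median of -0.08 (4 positive), the 9 of de novo synthesis -0.05 (3 positive), the 13 of complex lipid assembly 0.06 (9 positive) and the 19 of breakdown 0.00 (9 positive). In WT-S vs WT-D the medians were 0.00 (5 positive), 0.00 (5 positive), 0.00 (7 positive) and -0.05 (7 positive) in that order. In the interaction they were -0.13 (2 positive), -0.02 (3 positive), 0.05 (10 positive) and 0.01 (10 positive). In 3xTg-S vs 3xTg-D the mean sum of the oligodendrocyte markers was also lower, at 5092 CPM against 6239.6 CPM, and its part in these values was not tested.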
